A study of Mus musculus with 18 samples.

Results

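The comparison described here asked what differed in Thy1+ heart cells of C3H/HeJ and KK/HlJ mice between day 21 and day 14 of isoproterenol (ISO) infusion, and whether the genes that ISO had moved away from the sham level stayed there or went further. Its members were chosen by library title: 2 C3H/HeJ and 2 KK/HlJ libraries of ISO day 21 were set against 2 and 2 of ISO day 14. These are 8 of the 18 RNA-seq libraries in the series, and the 4 sham libraries of the same strains (2 each) are shown as levels. C3H/HeJ and KK/HlJ are inbred mouse strains, and ISO is an agonist of beta-adrenergic receptors that was delivered from implanted pumps. Sham hearts received saline. Thy1 sits on the surface of fibroblasts and was the sorting marker. What HE stands for in the labels' Thy1+ HE and Thy1+HE- is not spelled out there, and neither age nor sex is given. The sham labels carry no day, so a sham level may belong to either time. Whether the 2 libraries of a group are different mice, pools of mice or repeats of 1 preparation is not stated, so a p-value here weighs a difference only against the scatter of these libraries, which may be technical.

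Fibroblasts make and remodel the collagen-rich matrix of the heart. Under sustained beta-adrenergic load they raise matricellular proteins such as periostin, and part of that state fades when it is no longer needed. Immediate-early genes such as Fos, Jun and Egr1 are transcription factors and RNA regulators that cells switch on within minutes of a stimulus, including handling of the tissue. Heme oxygenase and metallothioneins respond to oxidants and metals. Chaperones of the endoplasmic reticulum fold secreted proteins, collagens among them, and rise together in the unfolded protein response.

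Total counts ran from 7230741 to 26280685 in the 8 ISO libraries and from 10703774 to 19379717 in sham. Levels below are CPM, read counts scaled to library size with edgeR's TMM factors, given as replicate 1 and then replicate 2, and differences are log2 fold changes with 95% intervals. The 2 libraries of a group correlated at r = 0.772 to 0.933 across genes, which are not independent replicates. Of 10011 genes with a mean of at least 5 CPM, replicate 1 of KK/HlJ had 607 listed at 0 at day 14 and 406 at day 21, against 4 to 28 in the other 6 ISO libraries. Fibroblast genes were present in every library. Pdgfra, a platelet-derived growth factor receptor, lay between 240 and 1040 CPM, Tcf21, a fibroblast transcription factor, between 270 and 471 CPM, and Thy1 between 256 and 471 CPM. The decorin gene Dcn lay between 7015 and 14968 CPM. Thy1 was lower in both day 21 libraries than in both day 14 libraries of each strain, with a difference of -0.30 (interval -0.69 to 0.09).

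Between day 14 and day 21 no gene was called. With strain as a term, edgeR's quasi-likelihood test at an adjusted p under 0.05 called 0 of 14250 genes (0%), and the smallest adjusted p was 1. At an unadjusted p under 0.05 there were 318 genes (2.23%), 140 higher at day 21 (0.982%) and 178 lower (1.25%). DESeq2 called 2 genes, Zfp36 and Fos, and limma voom called 0. In 380 genes (2.67%) both day 21 libraries lay above both day 14 libraries in each strain, and in 320 genes (2.25%) both lay below. The median SE of a log2 fold change was 0.532, so differences of the size seen for most genes were not detectable with these libraries. The genes that follow are therefore given as levels and intervals, not as changes, unless a call is stated.

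Matrix genes that ISO had raised were still above sham at day 21. Against sham, Postn, Hsph1 and Ltbp2 were called at day 21 and Postn and Hsph1 at day 14, and no gene was called lower. The calls number 2 of 14465 genes (0.0138%) at day 14 and 3 (0.0207%) at day 21, each over both strains. At an unadjusted p under 0.05 the counts were 684 (4.73%) and 1199 (8.29%), of which 260 (1.8%) and 559 (3.86%) were lower than sham. The day 14, day 21 and day comparisons share libraries, so their values are set side by side and not compared with each other by a test.

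Postn, which encodes the matricellular protein periostin (chromosome 3, 54361109 to 54391037, mm10), was at 376 and 231 CPM in C3H/HeJ sham, 1982 and 2333 on day 14 and 1221 and 1668 on day 21. In KK/HlJ it was at 243 and 440 CPM in sham, 1024 and 1864 on day 14 and 1242 and 2220 on day 21. Every ISO library lay above every sham library of both strains. The day 21 libraries lay below the day 14 libraries in C3H/HeJ and overlapped them in KK/HlJ. Postn rose over sham by 2.46 on the log2 scale at day 14 (adjusted p = 0.00783, edgeR) and by 2.30 at day 21 (adjusted p = 0.017), and day 21 differed from day 14 by -0.17 (interval -0.74 to 0.41). With only genes at a mean of at least 5 CPM tested, neither call held (adjusted p = 0.0645 and 0.116).

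Ltbp2 encodes a latent TGF-beta binding protein of elastic microfibrils (chromosome 12, 84783212 to 84876532). It was at 59.4 and 118 CPM in C3H/HeJ sham, 214 and 379 on day 14 and 369 and 226 on day 21. KK/HlJ levels were 70.3 and 59.1 CPM in sham, 220 and 210 on day 14 and 405 and 268 on day 21. Sham and ISO libraries did not overlap, and the days overlapped in C3H/HeJ. Ltbp2 was 2.06 above sham at day 21 (adjusted p = 0.0357, edgeR), a call lost with the 5 CPM filter, the replicate block, limma voom and the exon length offset (adjusted p = 0.127, 0.0556, 0.177 and 0.133). At day 14 it was 1.73 above sham and was not called, and the day difference was 0.32 (interval -0.25 to 0.89).

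Hsph1 encodes a large heat shock chaperone of the HSP110 family (chromosome 5, 149614287 to 149636376). It was at 9.36 and 14.1 CPM in C3H/HeJ sham, 124 and 93 on day 14 and 74.6 and 56.2 on day 21. The KK/HlJ libraries were at 29.8 and 30.7 CPM in sham, 56.5 and 88.8 on day 14 and 122 and 75.2 on day 21. The day 21 libraries were below day 14 in C3H/HeJ and overlapped day 14 in KK/HlJ, and all 8 ISO libraries were above all 4 sham libraries. Hsph1 rose over sham by 2.24 at day 14 (adjusted p = 0.0252, edgeR) and by 2.09 at day 21 (adjusted p = 0.0357), while the day difference was -0.15 (interval -0.81 to 0.51). The day 14 call was lost with the 5 CPM filter (adjusted p = 0.0645), the replicate block (0.0957), limma voom (0.414) and the exon length offset (0.061), and the day 21 call under the same 4 (0.116, 0.0833, 0.368 and 0.133), with all 18 libraries in the fit (0.0558) and without C3H/HeJ sham replicate 1 (0.0587).

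Other matrix genes were not called. Of those described next, chosen with earlier results known, Fn1 and Cilp lay above the sham libraries of their strain at both days. Lists of matrix genes had smaller medians against sham at day 14 and day 21. These were 0.33 and 0.38 for collagens, 0.15 and -0.04 for collagen crosslinking and 0.04 and 0.21 for proteoglycans. Elastic fibre genes had 0.15 and 0.23 and metalloproteinases 0.19 and 0.26, beside 0.05 and 0.09 over all genes. Fn1, which encodes fibronectin, was at 298 and 887 CPM in C3H/HeJ sham, 1070 and 1906 on day 14 and 1508 and 1595 on day 21. Levels in KK/HlJ were 284 and 679 CPM in sham, 1185 and 1144 on day 14 and 1627 and 1674 on day 21, so the days did not overlap in that strain. Cilp, a cartilage intermediate layer protein that binds TGF-beta, was at 150 and 220 CPM in C3H/HeJ sham, 424 and 312 on day 14 and 308 and 407 on day 21. Cilp in KK/HlJ was at 202 and 310 CPM in sham, 592 and 700 on day 14 and 669 and 1032 on day 21. Col12a1, a fibril-associated collagen, had day differences of 0.14 in C3H/HeJ and 0.77 in KK/HlJ, where it reached 62 and 85.3 CPM at day 21 against 6.36 and 15.8 CPM in sham. Ccn2, a matricellular target of TGF-beta, was at 1316 and 764 CPM at day 14 and 700 and 754 CPM at day 21 in C3H/HeJ, and its KK/HlJ sham libraries (761 and 303 CPM) overlapped the ISO libraries. Sfrp2, a secreted Wnt modulator, had a day difference of 0.33 (interval -0.25 to 0.91), and Col3a1, a fibrillar collagen, of -0.06 (interval -0.69 to 0.57).

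**Figure D1:**
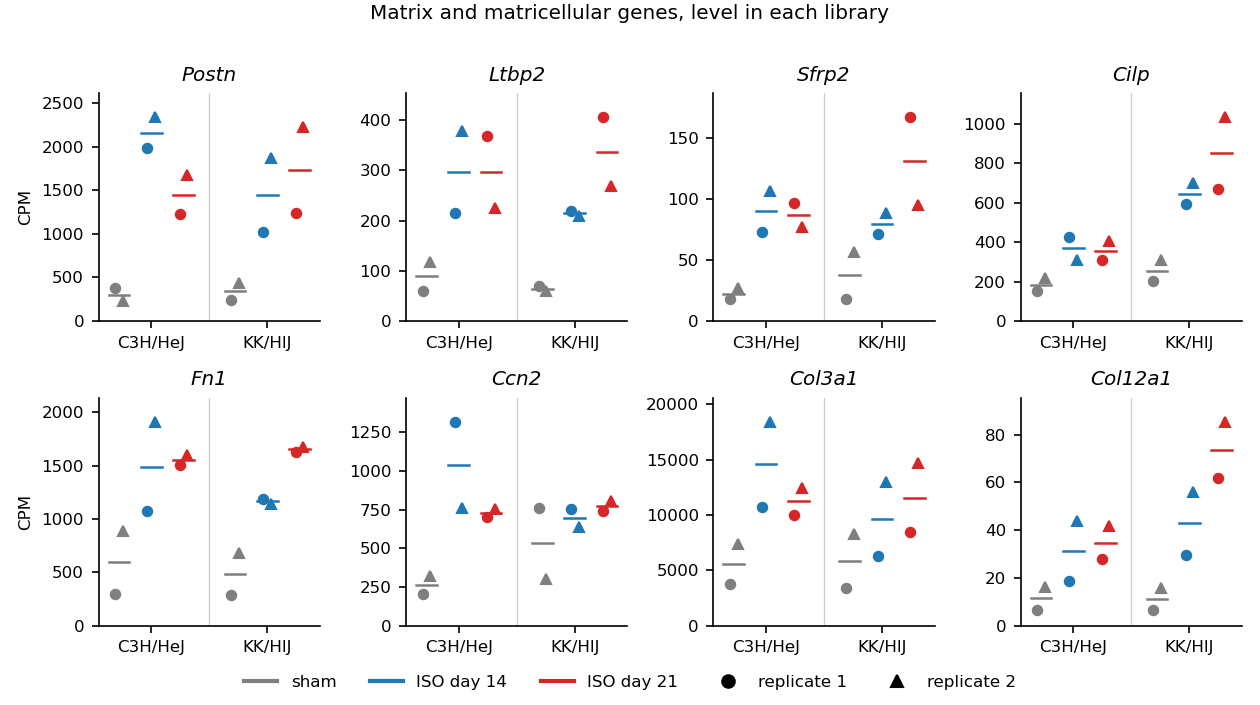
CPM of 8 matrix genes in each library (y axis, linear from 0) by strain and condition, with circles for replicate 1, triangles for replicate 2 and bars for the mean of 2 libraries. Postn in the 8 ISO libraries sat between 1024 and 2333 CPM, above the 4 sham libraries at 231 to 440 CPM.

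As a group, activated fibroblast and matricellular genes stood above sham at both days, and the strains differed in where day 21 lay against day 14. Of 35 tested, 19 were higher than sham at an unadjusted p under 0.05 at day 14 and 20 at day 21, with none lower, and 2.93% and 4.42% of all genes were higher by the same rule. These genes were listed with their response to ISO already known, so their direction is not independent evidence. Their median log2 fold change against sham was 1.15 at day 14 and 0.93 at day 21, beside 0.05 and 0.09 over all genes. Between the days 22 were higher and 13 lower with a median of 0.09. The 2 with an unadjusted p under 0.05 were both lower at day 21, beside 1.25% of all genes. These were Mfap5, a microfibril protein (-0.52, interval -0.97 to -0.06), and Serpina3n, a secreted protease inhibitor (-0.54, interval -1.04 to -0.04). Within C3H/HeJ the median was -0.30 and 13 members had both day 21 libraries below both day 14 libraries, against 3 above. Within KK/HlJ the median was 0.34 and 8 members lay above, with 0 below. Such non-overlap within 1 strain is common, since 15.3% of all genes lay above and 15% below for C3H/HeJ, with 12.3% above and 11.1% below for KK/HlJ. All-gene medians were 0.01 and 0.02. With 1 library of the strain left out the median ran from -0.52 to -0.31 in C3H/HeJ and from 0.13 to 0.46 in KK/HlJ. The median over strains turned to -0.08, -0.01 and -0.15 without KK/HlJ day 14 replicate 1, day 14 replicate 2 and day 21 replicate 2, and to -0.14 without replicate 1 of both KK/HlJ ISO groups.

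Collagens had a median below 0 in C3H/HeJ (-0.16) and above 0 in KK/HlJ (0.46), but the KK/HlJ median depended on single libraries. It was -0.06 without day 21 replicate 2 and 0.23 without day 14 replicate 1, and the summed KK/HlJ levels overlapped (28769 and 40926 CPM at day 14, 36450 and 50847 CPM at day 21). In C3H/HeJ the median was -0.03 without day 21 replicate 1 and -0.05 without day 14 replicate 2. Over both strains none of 31 tested had an unadjusted p under 0.05. Within KK/HlJ 3 were higher at that p, beside 0.519% of all genes. They were Col16a1, a fibril-associated collagen, and Col4a1 and Col4a2, the basement membrane chains. Within C3H/HeJ Col1a1 was lower, beside 0.484% of all genes. Col1a1, the alpha 1 chain of type I collagen, was at 8396 and 9202 CPM at day 14 and 6171 and 6293 CPM at day 21 in C3H/HeJ, with sham at 3830 and 6588. In KK/HlJ Col1a1 was at 4399 and 4773 CPM at day 14 and 5314 and 5848 CPM at day 21, with sham at 4192 and 4216. The day effects differed by 0.78 (KK/HlJ minus C3H/HeJ, interval 0.09 to 1.47, unadjusted p = 0.0299, adjusted p = 1, edgeR). Col1a1 in KK/HlJ was thus higher in both day 21 libraries, and in C3H/HeJ lower, than at day 14. Among 24 genes of collagen crosslinking and processing, 15 were lower, and P4ha2, a subunit of the enzyme that hydroxylates collagen prolines, was lower without overlap in both strains (-0.52, interval -1.03 to -0.02). Serpinh1, the collagen chaperone HSP47, was at 3156 and 2515 CPM at day 14 and 1667 and 1664 CPM at day 21 in C3H/HeJ, and at 2280 and 1653 against 1975 and 2137 CPM in KK/HlJ.

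Several immediate-early genes were among the genes with the smallest p that were higher at day 21, although the list as a whole was mixed. Of 32 tested, 10 were higher at an unadjusted p under 0.05 and 2 lower, beside 0.982% and 1.25% of all genes. In 8 of the 32 both day 21 libraries lay above both day 14 libraries in each strain, beside 2.67% of all genes. Those 8 were Fos, Fosb, Jun, Egr1, Atf3, Ier2, Klf2 and Zfp36. The list median was 0.07, with 18 higher and 14 lower. Ier5, Nr4a2 and Maff lay below in both strains, beside 2.25% of all genes. Against sham at day 14, 1 was higher and 6 lower at an unadjusted p under 0.05, beside 2.93% and 1.8% of all genes. Against sham at day 21, 1 was higher and 1 lower, beside 4.42% and 3.86%. The list medians against sham were -0.02 at day 14 and 0.08 at day 21.

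Fos, a subunit of the AP-1 transcription factor (chromosome 12, 85473890 to 85477273), was at 795 and 1639 CPM at day 14 and 3167 and 2413 at day 21 in C3H/HeJ. In KK/HlJ the levels were 1064 and 1342 CPM at day 14 and 3306 and 2119 at day 21. The days did not overlap in either strain. Sham was at 685 and 1855 CPM in C3H/HeJ, below both day 21 libraries, and at 971 and 3298 CPM in KK/HlJ, a range that held all but 1 of its ISO libraries. The day difference was 1.18 (interval 0.65 to 1.70, unadjusted p = 0.000334, adjusted p = 1, edgeR), with 1.19 in C3H/HeJ and 1.17 in KK/HlJ. DESeq2 and the fit without a filter on low counts called Fos (adjusted p = 0.013 and 0.00013).

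Zfp36 encodes tristetraprolin, which binds AU-rich mRNAs and speeds their decay (chromosome 7, 28376784 to 28380253). It was at 1288 and 1227 CPM at day 14 and 2376 and 2020 at day 21 in C3H/HeJ, and at 999 and 957 CPM against 1998 and 1569 in KK/HlJ. Sham was at 1397 and 2352 CPM in C3H/HeJ and at 1282 and 1749 in KK/HlJ. In each strain both day 14 libraries were below both sham libraries, and the day 21 libraries were within the sham range or slightly above it. The day difference of 0.83 (interval 0.47 to 1.19) had the smallest unadjusted p of all genes (0.000253), and DESeq2 called it (adjusted p = 0.00324). Of the 8 genes without overlap, 6 had a promoter in the RefSeq table, and that of Zfp36 is shown because it alone of these 6 held a CArG box, the site of serum response factor. The window runs from 250 bases before to 50 after the start (chr7:28379179-28379478, minus strand, GRCm38.p6, RefSeq), with the box in capitals:
Zfp36: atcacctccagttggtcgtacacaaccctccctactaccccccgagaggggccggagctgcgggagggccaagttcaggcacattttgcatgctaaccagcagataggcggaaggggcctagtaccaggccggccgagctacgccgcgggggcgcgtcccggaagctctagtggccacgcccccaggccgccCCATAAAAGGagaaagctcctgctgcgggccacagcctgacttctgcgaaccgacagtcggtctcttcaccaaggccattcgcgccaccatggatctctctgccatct
The CArG box was sought on both strands and was in 535 of 32851 RefSeq promoter windows of 300 bases (1.63%). The cAMP response element TGACGTCA was in 588 (1.79%) and in 0 of the 6. A match is only a match of letters, and sites outside the window or differing from these patterns were not sought. The lack of a match in the other 5 of the 6 therefore does not mean that they lack such a site.

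Jun, the partner of Fos in AP-1 (chromosome 4, 95049034 to 95052222), was at 915 and 897 CPM at day 14 and 1312 and 1259 at day 21 in C3H/HeJ, and at 449 and 754 against 1406 and 1091 CPM in KK/HlJ. The day difference was 0.77 (interval 0.32 to 1.22), and 0.51 without replicate 1 of both KK/HlJ ISO groups. Egr1, a zinc finger factor, differed by 0.56 (interval 0.19 to 0.93) and Ier2 by 0.64 (interval 0.20 to 1.09). Klf2, a factor known for its response to shear stress, was at 631 and 458 CPM at day 14 and 807 and 695 CPM at day 21 in C3H/HeJ, and at 494 and 459 against 841 and 608 CPM in KK/HlJ. Nr4a2, an orphan nuclear receptor, was in contrast at 32 and 45.8 CPM at day 14 and 13 and 26.3 CPM at day 21 in C3H/HeJ, and at 58.1 and 37.7 against 21.5 and 35 CPM in KK/HlJ. Summed over the list, day 14 libraries held 17221 to 20469 CPM, day 21 libraries 23636 to 27492 CPM and sham libraries 16800 to 29598 CPM. The 10 members higher at an unadjusted p under 0.05 became 5 without C3H/HeJ day 21 replicate 1 and 6 without KK/HlJ day 21 replicate 1.

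**Figure D2:**
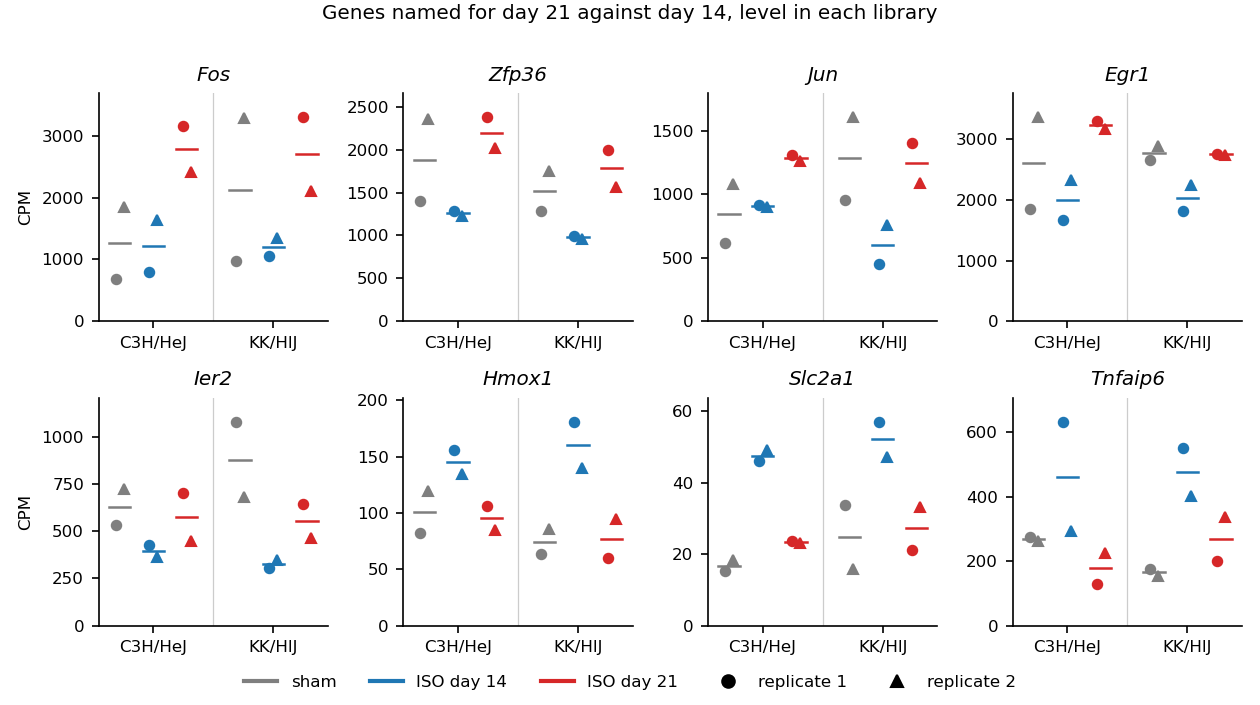
CPM of 8 genes named for the day comparison in each library (y axis, linear from 0), with circles for replicate 1, triangles for replicate 2 and bars for the mean of 2 libraries. Fos, Zfp36, Jun, Egr1 and Ier2 were higher in all day 21 libraries than in the day 14 libraries of the same strain, and Hmox1, Slc2a1 and Tnfaip6 were lower.

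Outside that list, genes named as higher at day 21 without overlap in both strains were Slc23a2, a vitamin C transporter (1.07, interval 0.41 to 1.72), Nab2, a corepressor of Egr1 (0.85, interval 0.24 to 1.46), Heyl, a Notch target (0.68, interval 0.24 to 1.11), Ano6, a scramblase (0.60), and Kirrel, an adhesion protein (0.58). Heyl was at 243 and 361 CPM in C3H/HeJ sham, 150 and 137 on day 14 and 197 and 201 on day 21. In KK/HlJ Heyl was at 239 and 349 CPM in sham, 103 and 158 on day 14 and 249 and 239 on day 21, so in both strains day 21 lay between day 14 and sham or within sham. Fbln2, an elastic fibre protein, was higher without overlap in both strains (0.53, interval 0.11 to 0.96), but its difference was 0.30 without replicate 1 of both KK/HlJ ISO groups. C3, the central complement protein, was at 4853 and 6228 CPM at day 14 and 6896 and 7150 CPM at day 21 in C3H/HeJ, and at 6043 and 8048 against 8997 and 9940 CPM in KK/HlJ.

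Genes lower at day 21 included several that had stood above sham at day 14 and were near it at day 21. Tnfaip6, a hyaluronan-binding protein of inflamed matrix (chromosome 2, 52038009 to 52056686), was at 276 and 263 CPM in C3H/HeJ sham, 631 and 293 on day 14 and 129 and 227 on day 21. In KK/HlJ it was at 176 and 154 CPM in sham, 551 and 402 on day 14 and 202 and 338 on day 21. Its day difference was -1.11 (interval -1.75 to -0.47), its difference from sham 1.15 at day 14 and 0.06 at day 21, and the fit without a filter on low counts called the day difference (adjusted p = 0.00641, edgeR). In C3H/HeJ day 21 lay below sham, and in KK/HlJ above it.

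Slc2a1, the glucose transporter GLUT1 (chromosome 4, 119108711 to 119137983), was at 15.3 and 18.3 CPM in C3H/HeJ sham, 46 and 49 on day 14 and 23.7 and 23.2 on day 21. KK/HlJ levels were 33.7 and 15.9 CPM in sham, 57 and 47.3 on day 14 and 21.1 and 33.3 on day 21. Its day difference was -0.99 (interval -1.59 to -0.39), from 1.28 above sham at day 14 to 0.31 at day 21. Hk2, which phosphorylates the glucose that such transporters admit, was also lower without overlap in both strains (-1.12, interval -1.96 to -0.28). The 26 tested genes of hypoxia and glycolysis did not go that way as a group, with a median of -0.03 and 12 higher.

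Hmox1, which encodes heme oxygenase 1 (chromosome 8, 75093621 to 75100589), was at 82.2 and 120 CPM in C3H/HeJ sham, 155 and 135 on day 14 and 107 and 84.5 on day 21. The KK/HlJ libraries were at 63.5 and 85.5 CPM in sham, 181 and 140 on day 14 and 60.4 and 94.2 on day 21. Day 21 overlapped sham and lay below day 14 in each strain, with a day difference of -0.84 (interval -1.33 to -0.34). Mt1 and Mt2, the metallothioneins, had day differences of -0.67 (interval -1.11 to -0.23) and -0.76 (interval -1.30 to -0.23), and both were below the sham mean at day 21. Of 22 tested genes of oxidative stress, 7 were lower without overlap in both strains and none higher, beside 2.25% and 2.67% of all genes. The 7 were Hmox1, Mt1, Mt2, Gpx4, Txn1, Sod1 and Keap1. At an unadjusted p under 0.05 there were 5 lower, beside 1.25% of all genes, and the list median was -0.18. Ftl1, the ferritin light chain (-0.91, interval -1.45 to -0.37), is one of a family of near-identical copies, so its counts are uncertain.

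Nuclear genes of mitochondrial respiration and genes of ribosomal proteins lay mostly lower at day 21, by small amounts. Of 73 nuclear genes of oxidative phosphorylation 67 were lower, with a median of -0.35. At an unadjusted p under 0.05 there were 7, all lower, beside 1.25% of all genes. Ndufv2, a subunit of complex I, was at 148 and 155 CPM at day 14 and 118 and 114 at day 21 in C3H/HeJ, and at 212 and 147 against 87.2 and 119 CPM in KK/HlJ. Of 76 cytosolic ribosomal protein genes 58 were lower, with a median of -0.32, and 7 were lower at an unadjusted p under 0.05, beside the same 1.25%. Rplp2, a stalk protein of the large subunit, had a day difference of -0.86 (interval -1.40 to -0.31), and such genes have many processed copies, so their counts are uncertain. Both lists also lay below sham, with medians of -0.41 and -0.76 for oxidative phosphorylation and -0.41 and -0.77 for ribosomal proteins at day 14 and day 21. With an offset for exon length in each library the day medians were -0.17 and -0.18, with 49 of 73 and 54 of 76 genes lower. The summed levels of the days overlapped in both strains for oxidative phosphorylation. For ribosomal proteins they overlapped in KK/HlJ and not in C3H/HeJ. Summed levels were higher in replicate 1 than in replicate 2 of all 6 groups for both lists. The part of the replicate in these values was not tested.

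Other stress and metabolic lists held single genes. In the heat shock list 23 of 30 genes were lower in the mean over strains. Within C3H/HeJ 25 were lower (median -0.38), while within KK/HlJ 14 were lower and 16 higher (median 0.04). Dnaja1, Hspb8, Dnaja4 and Hspa2 were lower without overlap in both strains, beside 2.25% of all genes. Dnaja1, a cochaperone of HSP70, was at 64 and 40.2 CPM at day 14 and 28 and 26.2 CPM at day 21 in C3H/HeJ, and at 65.8 and 60 against 37 and 41.9 CPM in KK/HlJ. Glucocorticoid-responsive genes had a median of -0.39 with 15 of 18 lower. Mt1, Mt2 and Nfkbia, the inhibitor of NF-kappaB, were the 3 lower at an unadjusted p under 0.05, beside 1.25% of all genes. Dusp1, a phosphatase of MAP kinases, was higher (0.61, interval 0.15 to 1.08). Cholesterol synthesis had a median of 0.35 with 16 of 20 higher, and it lay below sham by a median of -0.86 at day 14 and -0.44 at day 21. Laminin, dystroglycan and integrin genes had 17 of 22 higher with a median of 0.31. Lamc1, a laminin chain (0.45), and Dag1, dystroglycan (0.48), were higher at an unadjusted p under 0.05, beside 0.982% of all genes.

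Signalling lists of the fibroblast had small median differences, while single members such as Fzd8 (0.91) differed by more. Among 36 genes of TGF-beta and BMP signalling 18 were higher and 18 lower (median 0.00). Smad4, the common partner of the receptor-activated SMAD proteins, was at 64 and 80.8 CPM at day 14 and 116 and 98.5 at day 21 in C3H/HeJ, and at 77.7 and 88.4 against 111 and 102 CPM in KK/HlJ. Bmp6, a bone morphogenetic protein, was higher without overlap in both strains (0.44, interval 0.01 to 0.88). Tgfb1, the ligand most often tied to fibrosis, was at 157 and 96.5 CPM at day 14 and 76.9 and 105 at day 21 in C3H/HeJ, and at 171 and 70.1 against 91 and 105 CPM in KK/HlJ, and the days overlapped in both. Fzd8, a Wnt receptor, was at 13.9 and 22.9 CPM at day 14 and 29.7 and 24 at day 21 in C3H/HeJ, and at 10.7 and 17.1 against 42.2 and 26.3 CPM in KK/HlJ. Ace, which converts angiotensin I, was higher without overlap in both strains (0.43, interval 0.04 to 0.83).

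Of 34 beta-adrenergic and cAMP genes 24 were higher, with a median of 0.10. Adcy7, an adenylyl cyclase, was the only one higher at an unadjusted p under 0.05, beside 0.982% of all genes. Adcy5, another cyclase, and Crem, a cAMP-responsive factor, were the 2 lower, beside 1.25% of all genes. Acta2, the smooth muscle actin of myofibroblasts, was at 629 and 422 CPM at day 14 and 410 and 375 at day 21 in C3H/HeJ, and at 850 and 331 against 404 and 419 CPM in KK/HlJ, where the days overlapped. Among 19 contractile genes 11 were lower (median -0.23). None of 35 interferon-stimulated genes and none of 32 genes of mitosis and replication had an unadjusted p under 0.05, with medians of -0.08 and -0.07. Il6, an inflammatory cytokine, was at 525 and 365 CPM at day 14 and 142 and 330 at day 21 in C3H/HeJ, and at 364 and 431 against 157 and 489 CPM in KK/HlJ.

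**Figure D3:**
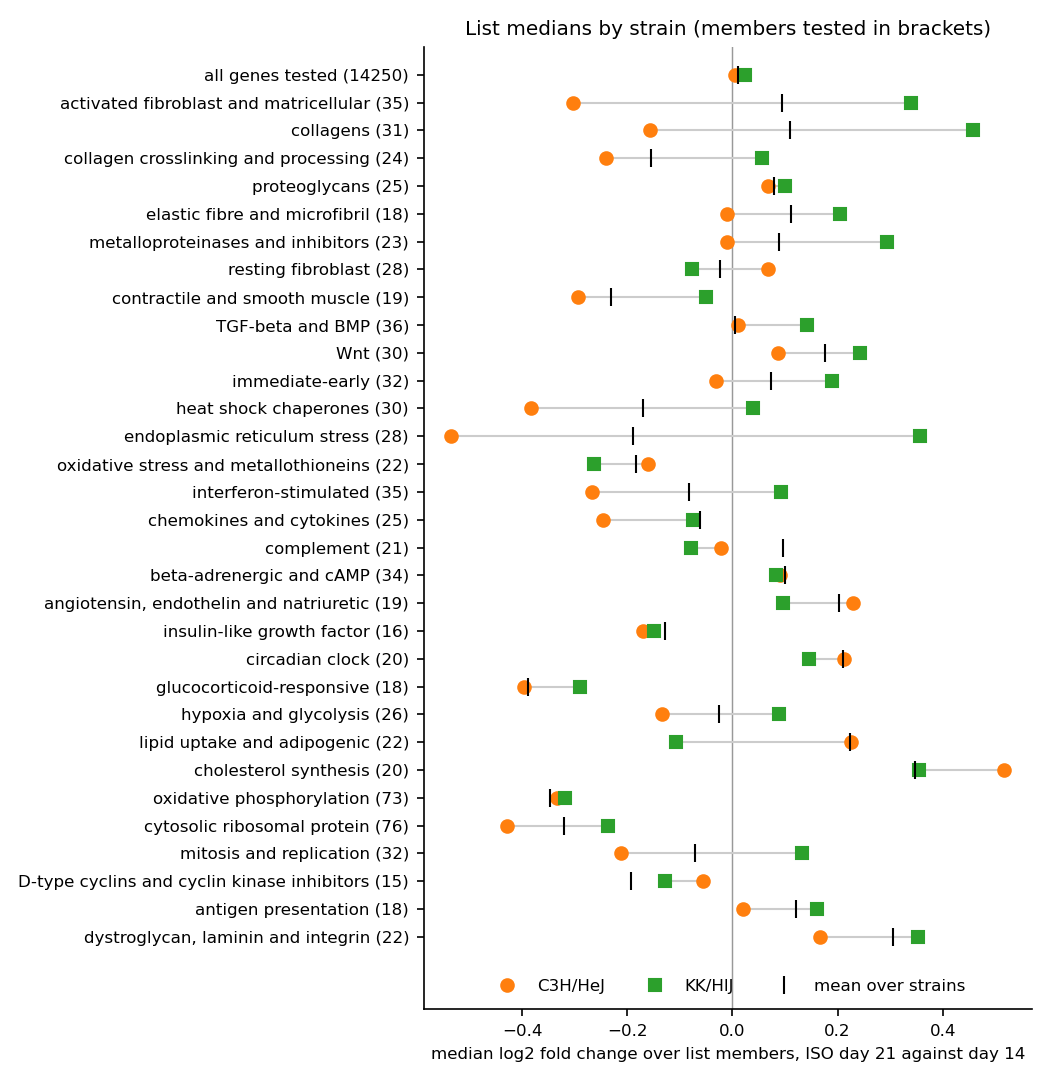
Median log2 fold change between day 21 and day 14 over the members of each gene list (x axis) for C3H/HeJ (circles), KK/HlJ (squares) and the mean over strains (black bars), with the number tested in brackets. The list of endoplasmic reticulum stress ran from -0.53 in C3H/HeJ to 0.36 in KK/HlJ, while all 14250 genes sat near 0.

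Several folding genes of the endoplasmic reticulum lay lower at day 21 in C3H/HeJ and higher in KK/HlJ, though no difference between the strains was called. The test of the difference between the day effects called 0 of 14250 genes with edgeR, with 117 (0.821%) at an unadjusted p under 0.05, and DESeq2 called 1. Of the 117 genes, 58 (0.407%) had the higher day effect in KK/HlJ and 59 (0.414%) the lower. Of 28 genes of endoplasmic reticulum stress, 6 had such a p, all with the higher day effect in KK/HlJ, beside 0.407% of all genes. These were Calr, Creld2, Hyou1, Pdia6, Sdf2l1 and Manf. In the first 5 of them the day 21 libraries lay wholly below day 14 in C3H/HeJ and wholly above in KK/HlJ, as in 1.48% of all genes, while 1.44% did the opposite. The list median was -0.53 in C3H/HeJ and 0.36 in KK/HlJ. The KK/HlJ median was -0.01 without day 14 replicate 1, the library with 607 genes listed at 0, and 0.08 without day 21 replicate 2, and the C3H/HeJ median was -0.30 without day 14 replicate 1. Summed over the list, C3H/HeJ held 11762 and 7288 CPM at day 14 and 4805 and 6947 at day 21. KK/HlJ held 4266 and 6379 against 5524 and 7947 CPM, so its days overlapped. Sham sums of the list were 8172 and 5261 CPM for C3H/HeJ. For KK/HlJ the sham libraries held 10613 and 5674 CPM. Replicate 2 of each ISO day fell within the sham range of its strain. C3H/HeJ day 14 replicate 1 was above that range, and replicate 1 of the other ISO groups was below it.

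Sdf2l1, a partner of the chaperone BiP, was at 74.6 and 60.3 CPM at day 14 and 12.8 and 18.2 at day 21 in C3H/HeJ, with sham at 55.3 and 30.8. Levels in KK/HlJ were 7.7 and 23.9 CPM at day 14 and 54.5 and 25.7 at day 21, with sham at 56.2 and 22.9. The effects differed by 3.47 (interval 1.66 to 5.28, unadjusted p = 0.00126, adjusted p = 1, edgeR). Day 14 was the highest group of C3H/HeJ and the lowest of KK/HlJ, and in KK/HlJ the 2 days nearly met.

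Calr, Creld2, Pdia6 and Hyou1 were chosen for description after their values were seen. Calr, the calcium-binding chaperone calreticulin, was at 1945 and 1292 CPM at day 14 and 732 and 1199 at day 21 in C3H/HeJ, and at 728 and 1021 against 1211 and 1488 CPM in KK/HlJ, with a difference of 1.38 (interval 0.40 to 2.36). Creld2, a secreted stress protein, differed by 1.69 (interval 0.44 to 2.93), Pdia6, a disulfide isomerase, by 1.66 (interval 0.10 to 3.23), and Hyou1, a large chaperone, by 1.30 (interval 0.34 to 2.25). Hspa5, the chaperone BiP, was at 2697 and 1027 CPM at day 14 and 568 and 1000 CPM at day 21 in C3H/HeJ, and at 468 and 887 against 550 and 1353 CPM in KK/HlJ, where the days overlapped. Ddit3, the stress factor CHOP, was lower without overlap in both strains (-0.87, interval -1.52 to -0.23).

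The promoters of Calr, Creld2 and Pdia6 are shown because each held the endoplasmic reticulum stress element (CCAAT, any 9 bases, then CCACG, sought on both strands), here in capitals, and that of Sdf2l1, which held no exact match, stands beside them. Windows run from 250 bases before to 50 after the start (GRCm38.p6, RefSeq) at chr8:84846882-84847181 (minus strand), chr15:88819396-88819695 (plus), chr12:17266339-17266638 (plus) and chr16:17132334-17132633 (minus):
Calr: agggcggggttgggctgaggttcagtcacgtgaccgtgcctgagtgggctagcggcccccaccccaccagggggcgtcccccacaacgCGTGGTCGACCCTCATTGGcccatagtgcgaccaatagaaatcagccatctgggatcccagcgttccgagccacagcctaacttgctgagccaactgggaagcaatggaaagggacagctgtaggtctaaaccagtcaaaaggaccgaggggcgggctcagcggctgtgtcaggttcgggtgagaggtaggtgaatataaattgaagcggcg
Creld2: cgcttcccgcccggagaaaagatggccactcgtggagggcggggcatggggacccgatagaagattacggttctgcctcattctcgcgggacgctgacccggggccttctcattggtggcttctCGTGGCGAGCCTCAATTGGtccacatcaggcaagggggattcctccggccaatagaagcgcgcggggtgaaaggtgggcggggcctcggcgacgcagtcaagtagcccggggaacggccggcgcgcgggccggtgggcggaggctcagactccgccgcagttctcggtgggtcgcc
Pdia6: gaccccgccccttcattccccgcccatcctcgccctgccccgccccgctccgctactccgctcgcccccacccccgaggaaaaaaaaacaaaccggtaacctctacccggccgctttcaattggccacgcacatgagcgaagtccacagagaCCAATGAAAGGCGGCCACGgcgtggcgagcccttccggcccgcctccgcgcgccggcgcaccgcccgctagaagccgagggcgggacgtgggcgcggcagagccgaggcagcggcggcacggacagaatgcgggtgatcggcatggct
Sdf2l1: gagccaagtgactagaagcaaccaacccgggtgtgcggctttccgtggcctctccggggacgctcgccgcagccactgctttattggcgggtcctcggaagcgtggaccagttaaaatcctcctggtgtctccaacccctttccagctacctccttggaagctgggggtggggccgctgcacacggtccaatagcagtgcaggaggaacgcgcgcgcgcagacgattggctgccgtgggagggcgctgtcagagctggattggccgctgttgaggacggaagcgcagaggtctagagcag
The element was in 39 of 32851 promoter windows (0.119%) and in 7 of 25 promoters of the stress list. The 4 promoters shown were picked by the day pattern of their genes and by this element. That 3 of the 4 held it therefore follows in part from the choice and is not evidence about the pattern. A match is only a match of letters. Hyou1 had no entry.

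Nfil3, a bZIP repressor of the clock and immune programmes (chromosome 13, 52967209 to 52981073), had the smallest unadjusted p for a difference between the strains. It was at 124 and 57.7 CPM at day 14 and 21.7 and 19.1 at day 21 in C3H/HeJ, and at 37.9 and 44.3 against 73.1 and 68.1 CPM in KK/HlJ. Its effects differed by 2.93 (interval 1.62 to 4.24, unadjusted p = 0.000378, adjusted p = 1, edgeR), and DESeq2 called it lower at day 21 in C3H/HeJ (-2.16, adjusted p = 0.0286). The fit without a filter on low counts called the difference between strains for 7 genes. Nfil3, Sdf2l1 and Angptl4 had the higher day effect in KK/HlJ, and Cd36, Lyz2, Stab1 and Gpihbp1, genes of endothelial cells or macrophages, the higher one in C3H/HeJ. The sham libraries were at 91.1 and 58.5 CPM in C3H/HeJ and at 137 and 7.53 in KK/HlJ, so the KK/HlJ levels all fell within the sham range. Angptl4, a secreted inhibitor of lipoprotein lipase, was at 83.8 and 13 CPM at day 14 and 4.34 and 10.1 at day 21 in C3H/HeJ, and at 4.42 and 6.28 against 25 and 19.9 CPM in KK/HlJ. Timp1, an inhibitor of metalloproteinases, was at 440 and 229 CPM at day 14 and 158 and 163 at day 21 in C3H/HeJ, and at 262 and 176 against 279 and 281 CPM in KK/HlJ (difference 1.41, interval 0.34 to 2.48).

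**Figure D4:**
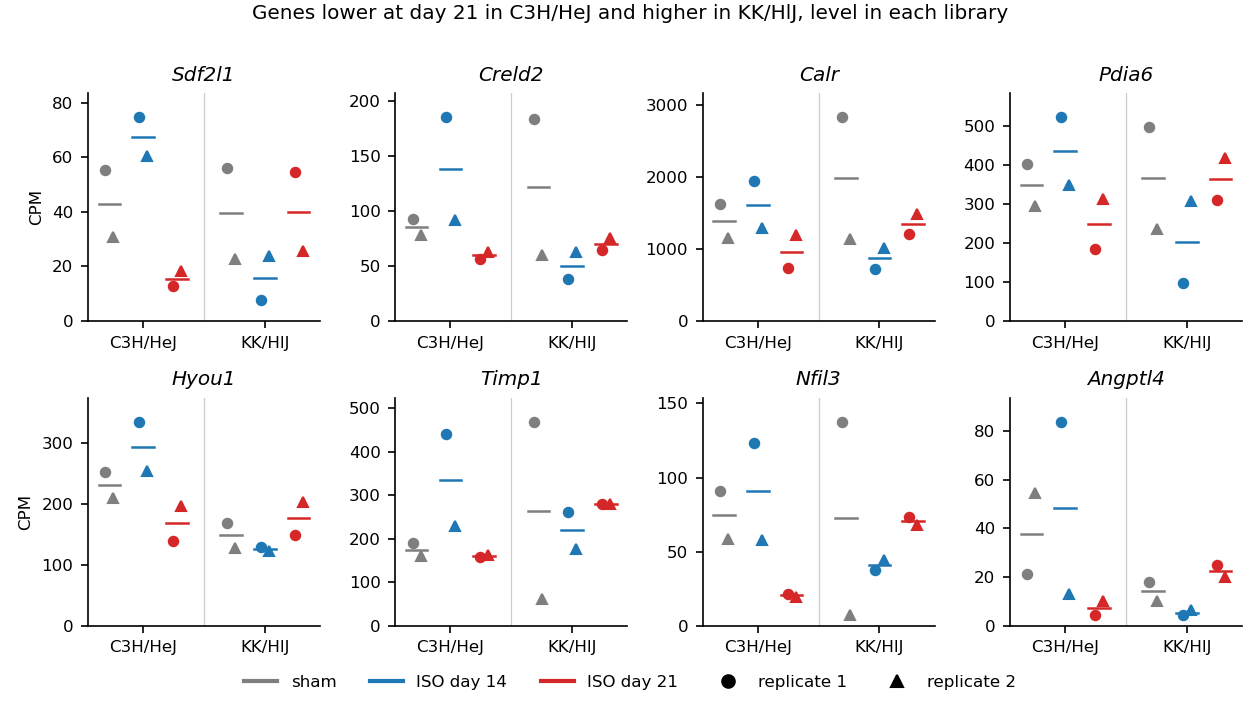
CPM of 8 genes in each library (y axis, linear from 0), chosen because day 21 lay below day 14 in C3H/HeJ and above it in KK/HlJ, with circles for replicate 1, triangles for replicate 2 and bars for the mean of 2 libraries. Creld2 was at 56.8 and 62.4 CPM at day 21 in C3H/HeJ against 185 and 92.1 at day 14.

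Within C3H/HeJ edgeR called 0 genes between the days (0%), with 113 at an unadjusted p under 0.05 (0.793%; 0.309% higher and 0.484% lower), and DESeq2 called 6. Within KK/HlJ edgeR called 0 (0%), with 185 at an unadjusted p under 0.05 (1.3%; 0.519% higher and 0.779% lower), and DESeq2 called 1. Without KK/HlJ day 14 replicate 2, which leaves replicate 1 alone in that group and assumes that it varies like the others, 572 genes were called in KK/HlJ and 334 for the difference between strains. Without KK/HlJ day 21 replicate 2 the counts were 218 and 144. Rbp4, a retinol carrier, was at 74.6 and 25 CPM at day 14 and 10.6 and 10.8 CPM at day 21 in KK/HlJ (-2.23), and Vmp1, an autophagy protein, at 332 and 139 against 84 and 117 CPM (-1.25).

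Genes of endothelial cells had higher levels at day 21 in C3H/HeJ, most of all in 1 library. Of 22 endothelial markers 8 had an unadjusted p under 0.05 there, all higher, beside 0.309% of all genes. The list median was 3.25, which was 0.69 without day 21 replicate 1. In 13 of the 22 both day 21 libraries lay above both day 14 libraries, beside 15.3% of all genes. In 7 the difference between strains had an unadjusted p under 0.05, all with the lower day effect in KK/HlJ, beside 0.414% of all genes. Within KK/HlJ the median of the endothelial list was -0.10, with 10 markers higher and 12 lower. Of the 6 genes that DESeq2 called in C3H/HeJ, 5 were Fabp4, Adgrl4, Cd36, Cdh5 and Cd300lg, all higher. Without a filter on low counts Podxl, Pecam1 and Cd36 were called higher in the mean over the strains. For Cd36 the difference between strains was called as well (-2.95, KK/HlJ minus C3H/HeJ, adjusted p = 0.0384, edgeR). In C3H/HeJ Adgrl4, an adhesion receptor of endothelium, was at 1.08 and 1.23 CPM at day 14 and 54.1 and 9.46 at day 21. Cd36, a fatty acid carrier, was at 6.76 and 17.7 CPM at day 14 and 197 and 37.7 CPM at day 21, and Tie1, an endothelial receptor, at 2.4 and 1.23 against 60.8 and 8.62. Over 22 endothelial markers the sum was 3318 CPM in C3H/HeJ day 21 replicate 1 and 982 to 1656 CPM in the other 11 libraries. That library also held 288 CPM of 22 macrophage markers, against 17.9 to 136 elsewhere, and 673 CPM of 20 cardiomyocyte markers, against 112 to 379 elsewhere. The highest other value of both these sums was in KK/HlJ day 14 replicate 1, which also held 245 CPM of 11 erythrocyte and platelet markers, against 5.59 to 64.2 CPM in the rest. Hbb-bt, a beta globin, was at 45.3 and 1.23 CPM at day 14 in KK/HlJ and at 0 and 0.242 CPM at day 21.

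Markers of pericytes and smooth muscle summed to 1686 to 3734 CPM and those of Schwann cells and glia to 974 to 1497 CPM, with the days overlapping in each strain. Markers of T, NK and B cells summed to at most 8.42 CPM, of neutrophils and mast cells to at most 8.21 CPM and of adipocytes to at most 14.9 CPM, and Adipoq, Plin1, S100a8, S100a9, Cd79a and Ptprc were too low to be tested. Of the T, NK and B cell markers 7 of 17 were at 0 in all 12 libraries, of neutrophil and mast cell markers 3 of 12, and of adipocyte markers 2 of 10. Epicardial markers summed to 579 to 890 CPM and markers of valve, bone and cartilage to 321 to 917 CPM. In such bulk samples fewer cells of a type and less RNA per cell cannot be told apart. The part of these markers in the results above was not tested. Fos, Zfp36, Slc2a1 and Tnfaip6 were named for non-overlap in each strain. Leaving out C3H/HeJ day 21 replicate 1 could therefore not turn the sign of their day difference.

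**Figure D5:**
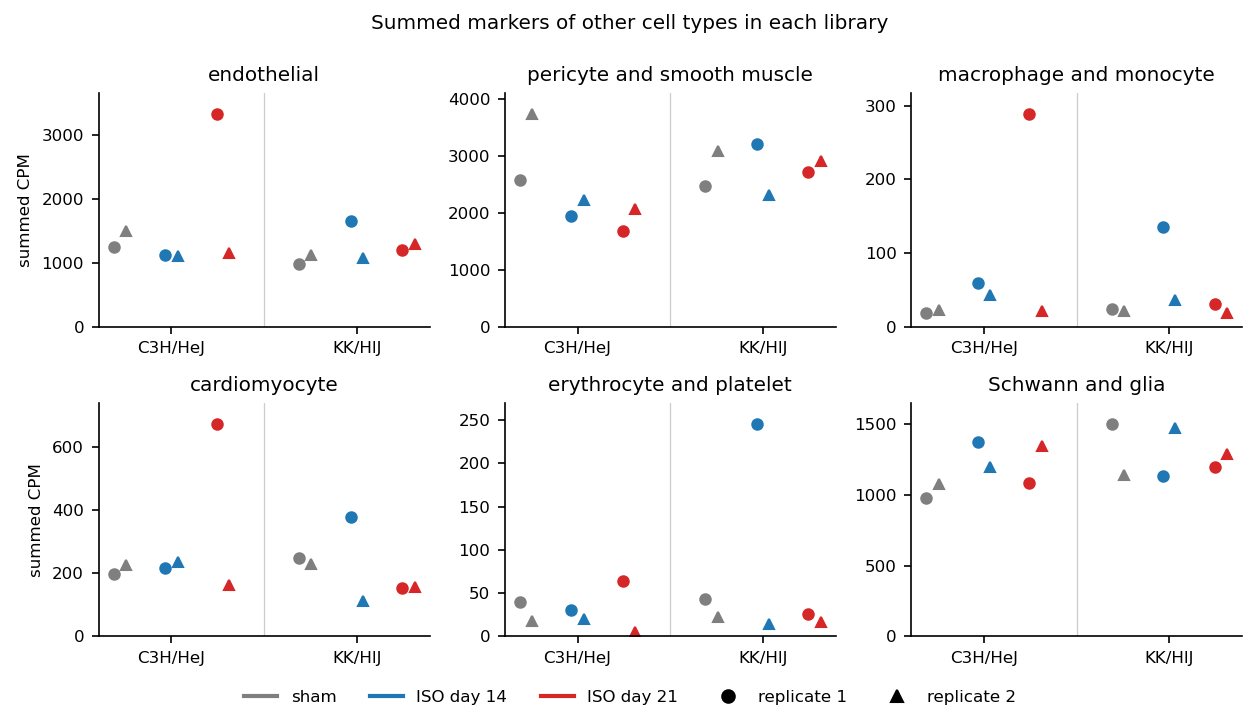
Summed CPM of markers of 6 other cell types in each library (y axes, linear from 0), with circles for replicate 1 and triangles for replicate 2. Endothelial markers reached 3318 CPM in C3H/HeJ day 21 replicate 1, and macrophage markers 288 CPM in the same library.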

How the data were processed

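RNA of Thy1+ heart cells was sequenced as single-end reads of 50 bases, per the labels' protocols. The submitters' processing notes name the mm10 build and the tools STAR 2.5.3a, FastQC and edgeR. Read counter, annotation and strand setting: not given in the sources used here. What the authors deposited is 1 raw count per Ensembl identifier and library, without normalization. Reads of both strains were mapped to 1 build derived from C57BL/6, so strain variants can lower or move counts, and overlapping or antisense genes cannot be told apart. GENCODE M21 gave symbols and coordinates for 53237 of 53342 identifiers, and the other 105 held 0.00159% of counts.

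Genes were tested with the quasi-likelihood F test of edgeR 4.0.16 in R 4.3.3 with TMM scaling and the default filter, fitted to the 8 ISO libraries with strain and day as terms, which leaves 5 residual degrees of freedom. The difference between strains and the within-strain effects came from a fit with 4 group terms, and the comparisons with sham from a fit of 12 libraries with 6 group terms. A gene was called where its p, adjusted by Benjamini-Hochberg over all genes tested, was under 0.05. Scripts were tested on simulated data. Levels are CPM scaled by TMM over the 12 libraries.

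Named genes had non-overlapping libraries in each strain and a mean of at least 5 CPM on the higher side. At most 12 called genes each way were taken, and where fewer were called the genes with the smallest unadjusted p filled up to 10 (3 within and between strains), with up to 4 per list and a set of matrix and fibroblast genes always shown. The 43 lists (11 of other cell types) and the members were chosen with earlier results of these data known. The mitochondrially encoded genes were not analysed here. Genes outside this rule, such as Calr, Klf2, Nr4a2, Timp1, Tgfb1 and Hspa5, were chosen after their values were seen.

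Alternatives were DESeq2 1.42.0, RLE scaling, no filter, a mean of at least 5 CPM, all 18 libraries in 1 fit, the replicate number as a block, limma voom (limma 3.58.1) with quality weights, 4 group terms or 12 libraries in the day fit, and each library left out in turn. Leaving out replicate 1 of both KK/HlJ ISO groups, and an offset for exon length, were added after seeing the data.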

Additional observations from a re-analysis of the deposited data

Results flagged for a closer look

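In 2 gene lists the summed level of every library fell on opposite sides in the 2 strains: both C3H/HeJ day 21 libraries lay below both day 14 libraries and both KK/HlJ day 21 libraries lay above. For activated fibroblast and matricellular genes the sums were 27540 and 25185 CPM at day 14 and 19610 and 20714 at day 21 in C3H/HeJ, and 20312 and 20324 against 21256 and 23948 CPM in KK/HlJ. The log2 ratio of day 21 to day 14 in KK/HlJ minus that in C3H/HeJ was 0.54 for this list. For genes of collagen crosslinking and processing the sums were 15642 and 12662 against 11758 and 11011 CPM in C3H/HeJ, and 12124 and 11444 against 12667 and 12371 CPM in KK/HlJ, with a difference of 0.4. Neither difference was tested. The KK/HlJ median of the collagen crosslinking list turned from 0.06 to -0.05 without day 14 replicate 1 and to -0.03 without day 21 replicate 2.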

How the results depend on the processing

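For the 191 named genes the day difference kept its sign under every alternative in 161, and of their values under alternatives 3489 moved by no more than the SE, 94 moved by more and 6 were newly called. No direction of a called gene turned. The count of genes called between the days (0) was 2 with DESeq2, 8 without a filter, 1 without replicate 1 of both KK/HlJ ISO groups and 0 to 1 with 1 library left out. For the difference between strains (0) the counts were 1, 7 and 2, and 0 to 334 with 1 library left out. Within C3H/HeJ (0) they were 6 with DESeq2, 3 without a filter and 0 to 1 with 1 library left out. Within KK/HlJ (0) they were 1 with DESeq2, 4 without a filter, 4 without both KK/HlJ replicates 1 and 0 to 572 with 1 library left out. For day 14 against sham (2) the counts were 54 with DESeq2, 52 without a filter, 0 at a mean of at least 5 CPM, 5 with all 18 libraries, 1 with the replicate block, 1 with limma voom, 13 without both KK/HlJ replicates 1, 1 with the exon length offset and 6 to 227 with 1 library left out. For day 21 against sham (3) they were 61, 81, 0, 2 with all 18 libraries, 1 with the replicate block, 1 with limma voom, 19 without both KK/HlJ replicates 1, 1 with the exon length offset and 3 to 209 with 1 library left out. The causes were not tested. With the replicate number as a block 0 genes were called between the days. Same-numbered libraries of day 14 and day 21 deviated from their group means at r = -0.232 (C3H/HeJ) and 0.171 (KK/HlJ). Over all 15 pairs of groups r ran from -0.286 to 0.405, so the numbers were not taken to pair samples. These r cover all genes with a mean of at least 5 CPM. They do not exclude a replicate effect on fewer genes, such as the oxidative phosphorylation and ribosomal protein lists, whose sums were higher in replicate 1 of all 6 groups. With 2 libraries in a group and a median SE of 0.532, small differences could not be resolved.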
